A study of Mus musculus with 4 samples.

Results

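The S100 genes encode small vertebrate calcium sensors built from a pair of EF-hand loops, and the 8 described here were S100a8, S100a9, S100a1, S100a4, S100a6, S100a10, S100a11 and S100a13, taken by symbol from a table of 16442 genes. All 8 had a row. The libraries were mRNA sequenced from leukaemia stem cells, the bone marrow cells thought to renew the leukaemia, of C57BL/6 mice, with 2 libraries from Rreb1-knockout mice (KO) and 2 from wild-type mice (WT). Rreb1 is a zinc-finger factor that binds RAS-responsive elements in DNA. The genotype tag of KO replicate 2 reads Rreb2-KO while its title reads KO, and libraries were grouped by title. The labels call the samples biological replicates but do not say whether each was 1 mouse or a pool, how the leukaemia was induced, which cells lost the gene or which part of it was removed, so p-values measure only the spread between these samples. The extraction text speaks of TAMs although the titles name LSCs.

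S100 proteins work as dimers that change shape when calcium enters the cell and then grip target proteins. S100a8 and S100a9 pair to form calprotectin, an abundant protein of the neutrophil and monocyte cytosol that starves microbes of zinc and manganese and, once released, signals through Tlr4 and the receptor Ager (RAGE). The other members are expressed in many cell types and act mostly inside them, on annexins, myosin and the cytoskeleton.

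Values are FPKM, read counts scaled for exonic length and sequencing depth, so that levels can be compared between genes of different length. Assigned reads, inferred from the FPKM values, numbered 17037493 to 18420466 in the KO libraries and 16590830 to 18451251 in the WT libraries. Rreb1 itself stood at 6.10 and 6.93 FPKM in KO libraries, against 5.24 and 6.57 FPKM in WT libraries (log2 fold change 0.13, limma adjusted p = 0.616), with overlapping groups; the value covers all exons and does not check the genotype labels. Stem and self-renewal marker genes (Kit, Cd34, Hoxa9 and Meis1) were present, with summed levels of 100 to 106 FPKM in KO libraries and 112 to 118 FPKM in WT libraries. Limma called 0 of these 4 (2 had an unadjusted p below 0.05), and limma-voom, run on reads recovered from the FPKM values, called Kit higher (means of 7.26 FPKM in KO and 3.95 FPKM in WT, adjusted p = 0.00060) and Cd34 lower (50.2 FPKM in KO and 69.9 FPKM in WT, adjusted p = 0.0076). Of the 11768 genes tested, 0.603% were called higher and 0.408% lower in KO (limma, adjusted p below 0.05), and 30.5% had both KO libraries above both WT libraries. With 2 libraries in each group the smallest two-sided permutation p is 0.333; the limma p-values draw on a spread estimated over all genes.

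Transcripts of both calprotectin chains, S100a8 and S100a9, rose in the KO libraries, and their summed level was 2.54-fold higher. Of the 7 tested members 0 fell. S100a11, S100a6, S100a1, S100a13 and S100a10 did not pass the test, and S100a4, at about 1 FPKM, was too low to be tested. Thus 2 of the 7 tested members were called higher, beside 0.603% of all tested genes (1.01% in either direction). Both KO libraries lay above both WT libraries for 4 of the 7, beside 30.5% of all tested genes, and below them for 0, beside 24.9%. Groups that did not overlap were thus found for 4 of 7 members and 55.3% of all tested genes. Unadjusted p-values below 0.05 were found for 3 of 7 members and 20.7% of all tested genes. The median log2 fold change was 0.38 over the 7 members and 0.03 over all tested genes.

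**Figure D1:**
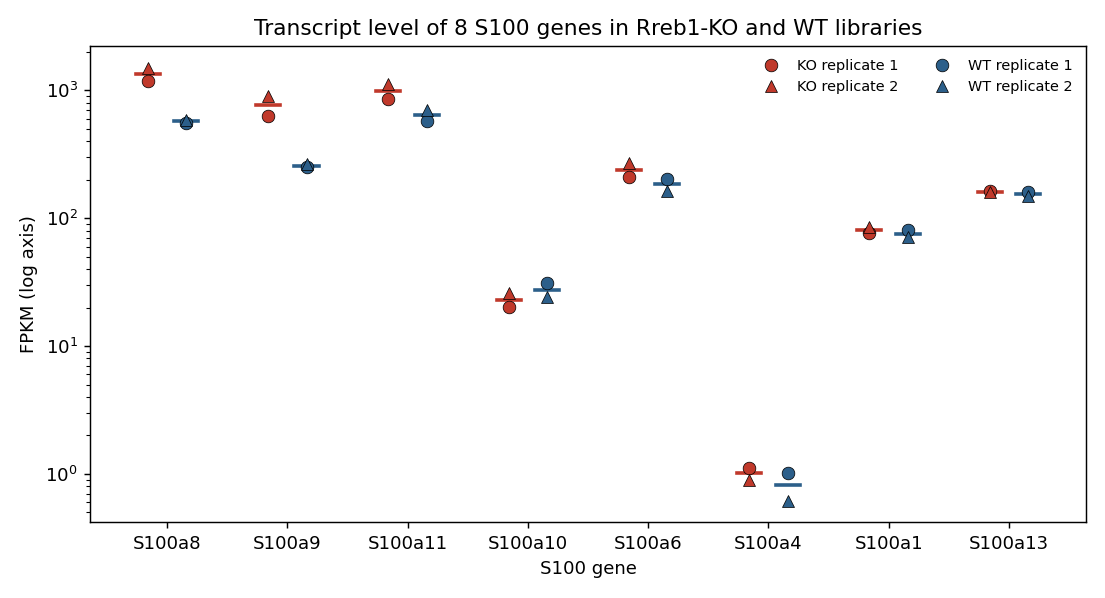
FPKM (log axis) of each S100 gene in each library. Red marks are KO libraries and blue marks WT libraries, circles are replicate 1, triangles replicate 2, and bars are group means. S100a8 and S100a9 separate the groups most widely, and S100a4 lies near 1 FPKM in all 4 libraries.

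S100a8 and S100a9 lie on chromosome 3, as all 8 members do, in opposite orientation with their annotated starts 26.7 kb apart. The 250 bases upstream of each RefSeq start (GRCm38.p6) are shown because these 2 genes rose; the GENCODE start of S100a8 lies inside the bases shown for it. Capitals mark matches, on either strand, to a C/EBP motif (TTNNGNAA), a TATA box (TATAAA) and the core of the Rreb1 motif (CCCCACC, whose CACC letters Klf motifs share).
S100a8, chr3:90668821-90669070, plus strand: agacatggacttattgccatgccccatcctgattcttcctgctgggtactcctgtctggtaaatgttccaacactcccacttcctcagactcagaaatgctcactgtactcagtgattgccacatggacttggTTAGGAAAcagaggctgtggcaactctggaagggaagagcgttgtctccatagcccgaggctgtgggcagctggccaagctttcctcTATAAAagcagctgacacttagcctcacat
S100a9, chr3:90695722-90695971, minus strand: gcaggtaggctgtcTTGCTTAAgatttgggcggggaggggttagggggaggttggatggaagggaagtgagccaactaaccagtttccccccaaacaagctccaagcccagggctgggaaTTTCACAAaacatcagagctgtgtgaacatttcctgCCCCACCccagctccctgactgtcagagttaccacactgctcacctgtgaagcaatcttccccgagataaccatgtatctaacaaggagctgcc
The S100a8 window held 1 C/EBP match, starting 117 bases before the start, and a TATA box starting 30 bases before it, and no Rreb1 core. The S100a9 window held 2 C/EBP matches, starting 236 and 130 bases before the start, and 1 Rreb1 core starting 94 bases before it, and no TATAAA. Of 32851 promoter windows of the same length, 36.8% held the C/EBP letters, 12.4% TATAAA and 14.1% the Rreb1 core. S100a10 had no RefSeq promoter entry and was not searched. None of the upstream windows of the other members (S100a1, S100a4, S100a6, S100a11 and S100a13) held the C/EBP letters or the Rreb1 core, while that of S100a4 held TATAAA. An ETS motif (GGAAGT, in 19.7% of windows) and an AP-1 motif (TGANTCA, in 6.75%) were searched too: the S100a8 and S100a9 windows each held 1 GGAAGT and no TGANTCA, those of S100a1 and S100a11 also held 1 GGAAGT, and that of S100a11 held 2 TGANTCA matches. A match is a string of letters and was not tested as a binding site.

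S100a8 (GRCm38 chromosome 3, 90668978 to 90670035, on the plus strand) measured 1173 and 1506 FPKM in KO libraries, against 560 and 584 FPKM in WT libraries. These values rest on 14996 and 17808 reads in KO and 7170 and 6724 reads in WT, and in KO the exact Poisson 95% limits (1154 to 1192 and 1484 to 1528 FPKM), which cover counting error only, do not meet. Both KO libraries lay above both WT libraries, by a mean fold of 2.34, and the log2 fold change was 1.22 (SE 0.16, 95% limits 0.84 to 1.59, limma adjusted p = 0.034). S100a8 ranked 21st by mean level among all genes of the table in KO and 62nd in WT.

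S100a9 (chromosome 3, 90692632 to 90695721, minus strand), the partner that carries the metal-chelating tail of the complex, stood at 632 and 905 FPKM in KO libraries, against 251 and 264 FPKM in WT libraries. Again the groups did not overlap, and the mean was 2.99-fold higher in KO. The log2 fold change was 1.55 (SE 0.18, 95% limits 1.11 to 1.99, limma adjusted p = 0.026). Its rank by level was 42nd in KO and 191st in WT.

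The ratio of the chains was lower in both KO libraries. S100a8 exceeded S100a9 by 1.86-fold and 1.66-fold in KO libraries, against 2.23-fold and 2.22-fold in WT libraries. The mean ratio differed by −0.46, with an SD of 0.14 in KO and 0.010 in WT (exact two-sided permutation p = 0.333, the smallest the design allows). The summed level of the pair was 1805 and 2411 FPKM in KO libraries and 811 and 848 FPKM in WT libraries. That was 57.8% and 59.2% of the summed FPKM of the 8 genes in KO, and 43.6% and 43.2% in WT. Calprotectin transcripts took 0.114% and 0.152% of assigned reads in KO libraries and 0.0520% and 0.0543% in WT libraries.

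The calls for S100a8 and S100a9 depended on which libraries and genes entered the fit. Without KO replicate 2, which was the higher of the KO libraries for both genes, their log2 fold changes were 1.04 and 1.29 (limma adjusted p = 0.129 and 0.056). Without WT replicate 1 the limma adjusted p were 0.222 and 0.178, without WT replicate 2 they were 0.157 and 0.128, and without the filter on low values 0.094 and 0.084. With limma-voom applied to reads recovered from the FPKM values, which called 4.41% of tested genes higher and 2.99% lower, the adjusted p were 1.81e-05 and 8.80e-06.

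Of 12 marker genes of neutrophil granules and maturation, all in the table and tested, 6 rose and 0 fell, with a median log2 fold change of 0.85. The count of 6 became 4 without KO replicate 1, 3 without KO replicate 2 and 1 without either WT replicate, in fits made after seeing the data. It was 4 without the filter on low values and 4 with the replicate block. The summed level of the 12 markers was 1210.5 and 1185 FPKM in KO libraries, against 512 and 490 FPKM in WT libraries. Most of that sum was Ngp (means of 485 FPKM in KO and 183 FPKM in WT) and Camp (360 FPKM in KO and 116 FPKM in WT). Mmp9, Camp, Ngp and Lcn2, genes of secreted granule proteins, rose with log2 fold changes of 1.65, 1.62, 1.39 and 0.94 (limma adjusted p = 0.0042, 0.0091, 0.0115 and 0.0137). Ltf, Mmp8 and Cxcr2, genes of a further granule protein, a granule collagenase and a chemokine receptor of mature neutrophils, had log2 fold changes of −0.05, −0.04 and −0.11 (limma adjusted p = 0.915, 0.921 and 0.680). Divided by the summed markers, calprotectin stood at 1.49 and 2.03 in KO libraries and at 1.58 and 1.73 in WT libraries, and these ranges overlapped. The ratio sets calprotectin mainly against genes that were themselves called higher in KO. The part of neutrophil-lineage cells in the S100 result was not tested. In bulk RNA, a different number of such cells and a different amount of RNA per cell cannot be told apart.

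No listed marker with a row, of any cell type, was at 0 in every library. Of the primary granule genes limma called 0 of 4 (1 had an unadjusted p below 0.05), and their summed level, most of it Elane, was 9475 to 10520 FPKM in KO and 8388 to 10561 FPKM in WT. Mpo, the myeloperoxidase gene, stood at 192 and 166 FPKM in KO libraries, against 399 and 309 FPKM in WT libraries (limma adjusted p = 0.053, limma-voom adjusted p = 0.00028), and 1 gene of the list was called lower with the replicate block. In the monocyte list 2 of 6 fell, Irf8 and Ms4a6c (median log2 fold change −0.40, summed level 807 to 881 FPKM in KO and 740 to 850 FPKM in WT). Most of that sum was Ly6c2 (675 FPKM in KO and 538 FPKM in WT). It was the 1 gene of the list with a positive log2 fold change (0.33, limma adjusted p = 0.203). The monocyte count was 1 with a pseudocount of 0.1, median-ratio scaling or the replicate block, and 0 without the filter on low values. In the macrophage list 3 of 5 fell (median −1.16, 277 to 296 FPKM in KO and 396 to 459 FPKM in WT). Erythroid genes rose in 5 of 5 cases (421 to 514 FPKM in KO and 82.5 to 90.3 FPKM in WT). Of the B cell genes 2 of 4 fell (119 to 135 FPKM in KO and 212 to 222 FPKM in WT), and of the basophil and mast cell genes 2 of 3 (263 to 269 FPKM in KO and 469 to 535 FPKM in WT). In each of these lists 1 tested gene had a positive log2 fold change. These were Cd79a in the B cell list (0.65, limma adjusted p = 0.101) and Mcpt8 in the other (0.22, limma adjusted p = 0.217). Of the T and NK cell genes limma called 0 of 5, although 4 had an unadjusted p below 0.05, and limma-voom and the replicate block each called 1 lower (median −0.78). Their summed level was 365 to 433 FPKM in KO and 299 to 362 FPKM in WT, most of it Nkg7 (391 FPKM in KO and 312 FPKM in WT), while Cd3d, Trbc1, Trbc2 and Gzma had mean levels in KO of 0.35 to 0.51 times those in WT. Of the stromal and endothelial genes limma called 0 of 3, although all 3 had an unadjusted p below 0.05 (54.1 to 59.3 FPKM in KO and 47.0 to 52.0 FPKM in WT, most of it Pecam1). Limma-voom called Col1a1 higher (5.11 FPKM in KO and 3.50 FPKM in WT, adjusted p = 0.041) and Cxcl12 lower (0.745 FPKM in KO and 2.81 FPKM in WT, adjusted p = 0.00017). With any 1 library left out, the macrophage and monocyte counts were 0, the B cell count was 0 or 1, the basophil and mast cell count was 1 and the erythroid count was 2 to 4. Without the filter on low values, the B cell count was 0 and the erythroid count 4. The macrophage count and the basophil and mast cell count were then 1 each. The replicate block gave a B cell count of 1 and an erythroid count of 4. Neither epithelial gene in the table, Krt18 or Cdh1, was tested, and their summed level was 0.862 to 1.09 FPKM in KO and 1.07 to 1.16 FPKM in WT. The part of these cell types in the S100 values was not tested.

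S100a11, the partner of annexin A1, was the highest of the 8 genes by mean level in WT and lay between the calprotectin chains in KO. It stood at 849 and 1116 FPKM in KO libraries, against 571 and 703 FPKM in WT libraries. The groups did not overlap and the mean was 1.54-fold higher in KO, but the log2 fold change of 0.62 (SE 0.18, 95% limits 0.18 to 1.06) did not pass the test (limma adjusted p = 0.159). Limma-voom called it higher (adjusted p = 0.011), and without KO replicate 2 the log2 fold change was 0.42. S100a11 has near-identical copies, so its reads are uncertain. The processed pseudogenes Gm7665 and Gm12854 match its mRNA at 98.7% and 99.0% of 297 aligned bases, and they held reads amounting to 6.92% and 6.48% of the S100a11 reads in KO libraries and 6.10% and 6.07% in WT libraries. Gm7665 stood at 97.4 and 121 FPKM in KO libraries, against 58.0 and 71.8 FPKM in WT libraries (log2 fold change 0.74, limma adjusted p = 0.088). With the reads of both copies added to those of S100a11, a choice made after seeing the data, its log2 fold change was 0.63 (limma adjusted p = 0.158).

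S100a10 was the 1 tested member with a negative log2 fold change. This protein has lost the ability to bind calcium and forms a tetramer with annexin A2 at the plasma membrane. It stood at 20.1 and 25.9 FPKM in KO libraries, against 30.9 and 24.3 FPKM in WT libraries, and the groups overlapped. The log2 fold change was −0.26 (SE 0.16, 95% limits −0.65 to 0.13, limma adjusted p = 0.392). S100a11 and S100a10 are neighbours, with starts 34.6 kb apart on the same strand and 2.82 Mb or more from the start of S100a9. Their ratio, S100a11 over S100a10, was 42.3 and 43.1 in KO libraries and 18.4 and 28.9 in WT libraries.

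S100a6 (calcyclin), which binds the ubiquitin-ligase adaptor Cacybp, stood at 209 and 271 FPKM in KO libraries, against 204 and 164 FPKM in WT libraries. KO replicate 1 and WT replicate 1 were nearly level, so the groups were separated by a narrow gap. The log2 fold change was 0.38 (SE 0.16, 95% limits −0.02 to 0.78, limma adjusted p = 0.256).

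S100a1 and S100a13 are divergent neighbours whose annotated starts lie 43 bases apart. S100a1 regulates calcium release channels in heart and skeletal muscle, and S100a13 takes part in the export of growth factors that lack a signal peptide. The 42 bases between the starts are shown because they lie directly upstream of both genes. None of the motifs searched was found in them, and promoter activity was not tested.
Between S100a1 and S100a13, chr3:90514393-90514434, plus strand: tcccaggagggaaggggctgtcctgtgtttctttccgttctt
S100a1 stood at 76.9 and 86.0 FPKM in KO libraries, against 80.6 and 70.8 FPKM in WT libraries. S100a13 stood at 163 and 161 FPKM in KO libraries, against 161 and 149 FPKM in WT libraries. For S100a1 the groups overlapped, with a log2 fold change of 0.11 (95% limits −0.15 to 0.36, limma adjusted p = 0.589). They overlapped for S100a13 too, with a log2 fold change of 0.06 (95% limits −0.15 to 0.28, limma adjusted p = 0.715). These limits leave out changes of the size measured for S100a8. The ratio of S100a13 to S100a1 was 2.12 and 1.87 in KO libraries and 1.996 and 2.11 in WT libraries.

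**Figure D2:**
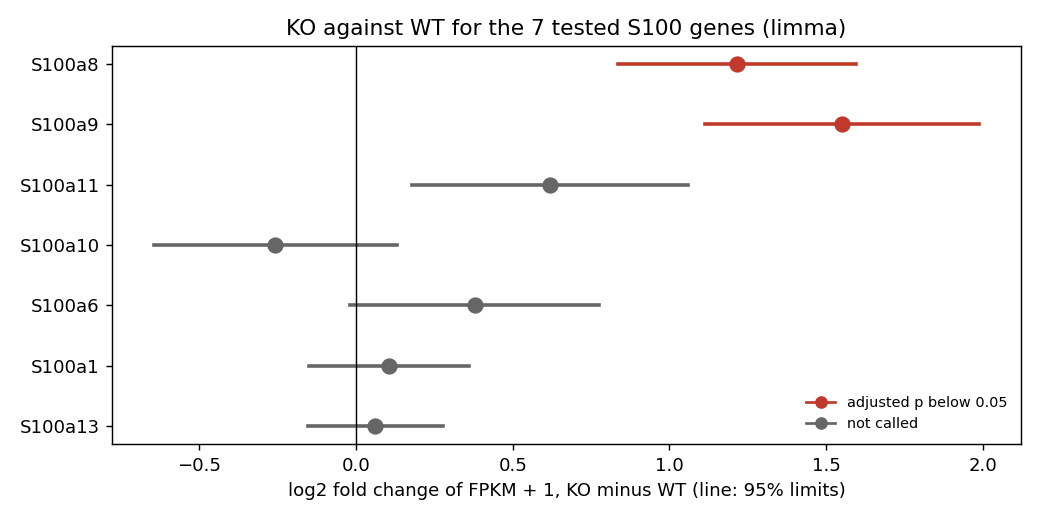
Log2 fold change of FPKM + 1, KO minus WT, for the 7 tested S100 genes, with 95% limits from limma. Red marks genes with an adjusted p below 0.05 and grey the others. S100a8 (1.22) and S100a9 (1.55) lie to the right of all others, and the limits of S100a10, S100a6, S100a1 and S100a13 include 0.

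S100a4, a partner of non-muscle myosin, stood at 1.12 and 0.905 FPKM in KO libraries, against 1.02 and 0.619 FPKM in WT libraries, from 12 and 9 reads in KO and 11 and 6 reads in WT. The groups overlapped. With exact Poisson limits, which cover counting error only, the lowest library (WT replicate 2) could lie between 0.227 and 1.35 FPKM. The values of the other libraries lie within that range, so a small difference could not be told from counting error. Of the 584 exonic bases of S100a4, 51.7% are also annotated to Gm42674 on the same strand, a gene not analysed here; how reads in that stretch were assigned is not stated, so its level is uncertain.

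By mean level the order in KO was S100a8, S100a11, S100a9, S100a6, S100a13, S100a1, S100a10 and S100a4, and in WT it was S100a11, S100a8, S100a9, S100a6, S100a13, S100a1, S100a10 and S100a4. The ranges of S100a11 and S100a9 overlapped in KO, as did those of S100a11 and S100a8 in WT. All other neighbours in the order were separate in the libraries of their group. The order rests on annotated exonic lengths, such as 1367 bases for S100a6 and 522 for S100a9. In WT libraries S100a6 had more reads (5139 and 3725) than S100a9 (2419 and 2283).

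The members differed in how well replicates matched. KO replicate 2 exceeded KO replicate 1 by 0.36 for S100a8, 0.52 for S100a9, 0.39 for S100a11, 0.37 for S100a6 and 0.35 for S100a10 on the log2(FPKM + 1) scale. The median size of that difference over tested genes was 0.13. In WT, replicate 2 differed from replicate 1 by 0.06 for S100a8 and 0.07 for S100a9, while S100a6 and S100a10 were lower in replicate 2 (differences −0.31 and −0.34) and S100a11 was higher by 0.30. For both calprotectin chains the KO pair thus differed more than the WT pair.

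No gene other than S100a8 and S100a9 was called within 250 kb of the S100a8 start. That window held 10 genes of the table, of which 6 were members. The 4 others, Ints3, Ilf2, Snapin and Chtop, had log2 fold changes between −0.17 and 0.11 and 0 were called. All 4 start 159 to 235 kb from the S100a8 start, on the side away from S100a9, so the nearer flanks held members only. These genes were chosen by position after the member values had been seen, and the window was not tested as a unit.

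**Figure D3:**
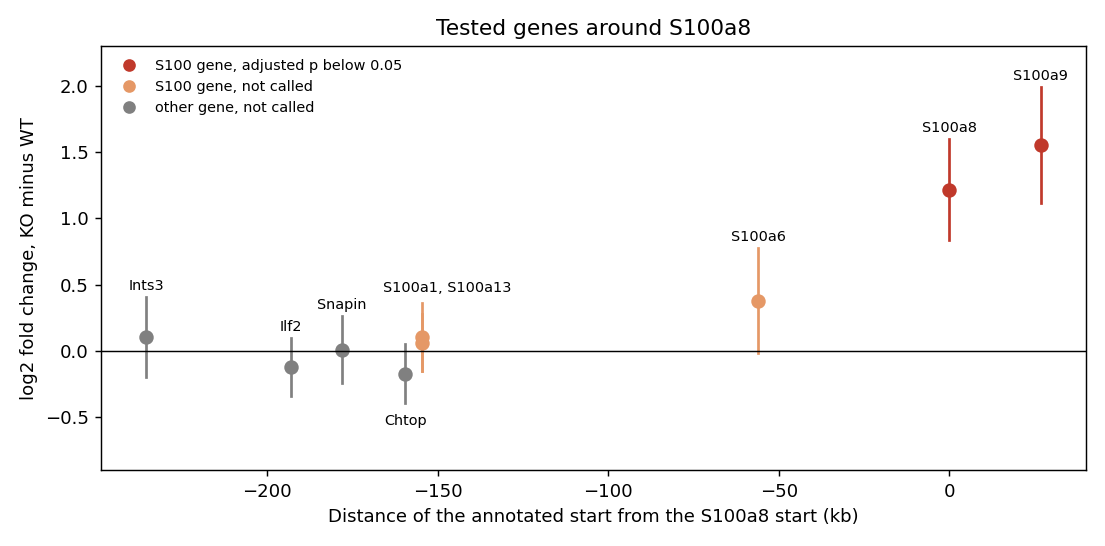
Log2 fold change, KO minus WT, with 95% limits, against distance in kb of each gene's annotated start from the S100a8 start, for tested genes within 250 kb. S100a8 and S100a9 are the called genes (red), S100a6 has a log2 fold change of 0.38, and S100a1 and S100a13 (orange, like S100a6) and the other genes (grey) lie between −0.17 and 0.11.

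Receptors and adaptors of extracellular S100 proteins gave no call. Of 9 listed genes 8 were in the table and 6 were tested, 0 were called in either direction by limma or limma-voom (1 had an unadjusted limma p below 0.05), and the median log2 fold change was −0.13, or −0.03 without WT replicate 1 and −0.23 without WT replicate 2. Tlr4, the calprotectin receptor, stood at 0.850 and 1.07 FPKM in KO libraries and 1.28 and 0.955 FPKM in WT libraries (log2 fold change −0.11, limma adjusted p = 0.750). Ly96, the Tlr4 co-receptor, had 4.31 and 4.66 FPKM in KO libraries, against 6.10 and 6.02 FPKM in WT libraries (log2 fold change −0.37, limma adjusted p = 0.155). Ager was at 1.67 and 2.66 FPKM in KO libraries and 1.52 and 1.49 FPKM in WT libraries (limma adjusted p = 0.373). The adaptor Myd88 and the co-receptor Cd14 had log2 fold changes of −0.28 and 0.20 (limma adjusted p = 0.311 and 0.432).

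The annexins, calcium-dependent membrane-binding proteins that S100 dimers bridge, gave no call either. Of 12 listed genes 9 were in the table and tested, 0 were called by limma or limma-voom (3 had an unadjusted limma p below 0.05), and the median log2 fold change was −0.13, or 0.04 without WT replicate 1 and −0.26 without WT replicate 2. Anxa2, the partner of S100a10, stood at 87.0 and 83.9 FPKM in KO libraries, against 107 and 81.8 FPKM in WT libraries (log2 fold change −0.13, limma adjusted p = 0.616). Anxa1, the partner of S100a11, stood at 78.0 and 82.2 FPKM in KO libraries, against 74.8 and 63.4 FPKM in WT libraries (log2 fold change 0.21, limma adjusted p = 0.296). The smallest p-values of the list were those of Anxa11, Anxa9, Anxa6 and Anxa5, with log2 fold changes of 0.35, −0.26, −0.25 and −0.24 (limma adjusted p = 0.160 to 0.261).

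Among other S100 partners 6 of 8 listed genes were in the table and 5 were tested, of which limma called 0 (2 had an unadjusted p below 0.05) and limma-voom 1. The median log2 fold change was 0.02, and with 1 library left out it ran from 0.05 to 0.12, the highest without WT replicate 2. That gene was Myh9, the non-muscle myosin heavy chain that S100a4 binds, at 28.5 and 32.2 FPKM in KO libraries, against 20.8 and 19.7 FPKM in WT libraries (log2 fold change 0.56, limma adjusted p = 0.065, limma-voom adjusted p = 0.0033). Iqgap1, a cytoskeletal scaffold, had a log2 fold change of 0.28 (limma adjusted p = 0.189). Cacybp was at 114 and 94.6 FPKM in KO libraries, against 117 and 135 FPKM in WT libraries (log2 fold change −0.27, limma adjusted p = 0.269), and its S100a6-binding relative Sugt1 had a log2 fold change of 0.01. Ahnak, a giant scaffold held by the S100a10 and annexin A2 complex, was below the level tested, at 0.621 and 0.792 FPKM in KO libraries and 0.845 and 0.862 FPKM in WT libraries.

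The phagocyte NADPH oxidase, which calprotectin supplies with arachidonic acid in neutrophils, had 6 of 6 subunit genes tested, 0 called by limma or limma-voom (1 had an unadjusted limma p below 0.05) and a median log2 fold change of 0.12. Ncf1 and Ncf4, cytosolic subunits, had log2 fold changes of 0.23 each (limma adjusted p = 0.195 and 0.300), and Cybb, the catalytic subunit, −0.12 (limma adjusted p = 0.620). Other EF-hand calcium sensors, 17 of 17 tested, had 0 calls by limma (2 had an unadjusted p below 0.05), 1 lower call by limma-voom and a median log2 fold change of 0.01. That gene was Rcn1, a calcium-binding protein of the endoplasmic reticulum, at 6.05 and 5.71 FPKM in KO libraries and 8.92 and 7.996 FPKM in WT libraries (log2 fold change −0.46, limma adjusted p = 0.111, limma-voom adjusted p = 0.044).

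**Figure D4:**
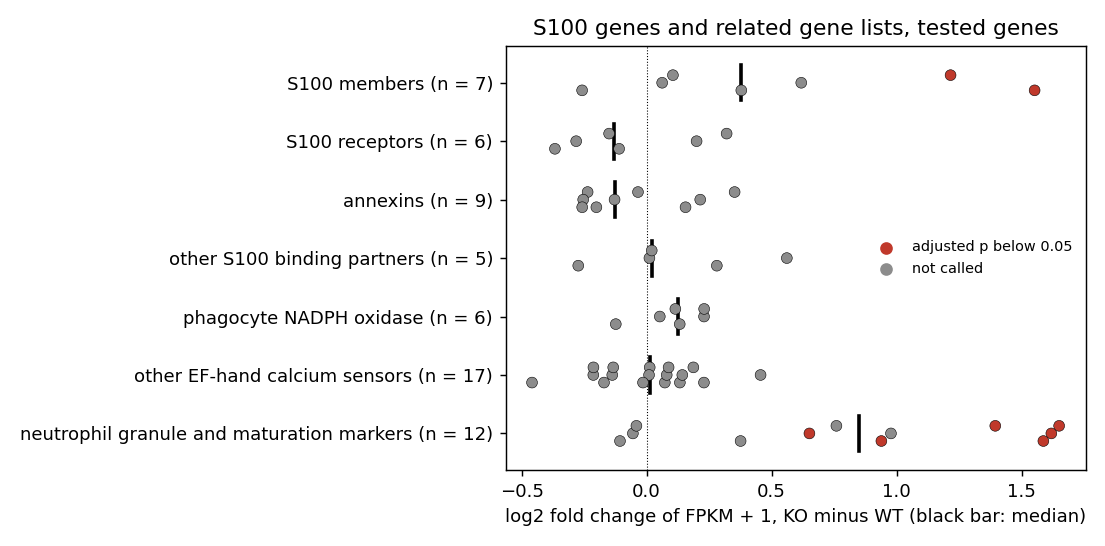
Log2 fold change of FPKM + 1, KO minus WT, of each tested gene (points) in the S100 set and in 6 related lists, with the list median as a black bar. Red points have an adjusted p below 0.05. Called genes are in the S100 set (2 of 7) and the neutrophil marker list (6 of 12), and the other lists have 0.

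Members and most symbols ending in Rik or starting with Gm were left out of a search for genes patterned like calprotectin. The nearest of the other tested genes were Fpr2, Stfa1, Stfa3, H1f5 and Alas2. Their root mean square differences were 0.07 to 0.12 from the mean of the centred S100a8 and S100a9 values, on the log2(FPKM + 1) scale over 4 libraries. Being chosen for a pattern that is high in KO, they differ between KO and WT by that choice. Fpr2, a formyl peptide receptor of phagocytes, was nearest, at 3.56 and 5.89 FPKM in KO libraries, against 1.05 and 1.30 FPKM in WT libraries. Its log2 fold change was 1.37 (limma adjusted p = 0.057). Adding 1 FPKM compresses low genes: the mean FPKM of Fpr2 and Alas2 was 4.02-fold and 5.01-fold higher in KO, against 2.34-fold for S100a8 and 2.99-fold for S100a9, so these 2 genes are near calprotectin on the log2(FPKM + 1) scale and not in fold. Stfa1 and Stfa3 encode stefin A protease inhibitors with close paralogs that can share reads. H1f5 is a linker histone gene and Alas2 starts haem synthesis in erythroid cells. Among the members, S100a11 was nearest to the calprotectin mean at 0.39 and S100a10 farthest at 0.83.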

How the data were processed

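The authors deposited 1 table of FPKM values with 1 added, as inferred from the values: the lowest deposited value was exactly 1, and that 1 was subtracted. The submitters' processing notes name HISAT2 2.1.0, featureCounts, CASAVA and DESeq2, and the build GRCm38, without their roles. Symbols matched GENCODE M21 for 16014 of 16442 genes. FPKM times exonic length was divided by a unit per read, fitted for each library from the same values. This gave whole reads within 0.05 in all 4 libraries for 15787 genes, the 8 S100 genes included. The numbers of assigned reads were derived from that unit. The library kit is not described as marking strand.

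KO and WT were compared with limma 3.58.1 in R 4.3.3 (trend form, group as the only term, two-sided, Benjamini-Hochberg adjustment over all tested genes) on log2(FPKM + 1), keeping 11768 genes whose mean reached 1 FPKM. This scale understates changes of low genes. The procedure was tested on simulated reads, with the same dispersion set for every gene. That run does not show how reliable the calls are in these libraries. Alternatives were a pseudocount of 0.1, no filter, median-ratio scaling, a replicate block, limma-voom on recovered reads and leaving out each library. The members and lists were chosen with earlier results of these data known. Named genes were the 8 members, up to 4 genes per list by smallest p, fixed partners, and 5 tested genes near calprotectin in pattern. Those 5 were the nearest after leaving out members and symbols ending in Rik or starting with Gm (Gmpr, Gmfg and Gmnn were kept). Other named genes were chosen after their values were seen. Promoter sequences are RefSeq's (GRCm38.p6), found for 7 of the 8 members. Similar transcripts were found with BLAST 2.17.0.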

Additional observations from a re-analysis of the deposited data

How the results depend on the processing

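All 7 tested S100 genes kept the sign of their log2 fold change under the 9 alternatives named above. S100a8 ran from 1.04 to 1.40 and S100a9 from 1.29 to 1.81, and each was called under 5 of the 9. The 2 S100 genes called higher became 0 without the filter on low values and 0 to 2 with 1 library left out, where the fits had fewer samples and the lone library of a group was assumed to vary like the others. Counts over all genes were less stable. The 71 higher and 48 lower calls became 22 and 10 without the filter, and 501 and 340 by limma-voom. With 1 library left out they ran from 4 to 50 and from 2 to 14. With the replicate number as a block they were 40 and 26, and the 2 S100 calls held. Deviations of same-numbered libraries were hardly correlated across genes (r = 0.0090). With so few libraries this cannot show whether a number marks a shared batch, which the labels do not say. Median-ratio scaling called 53 and 38. Of S100a11, limma adjusted p ran from 0.091 with the replicate block to 0.520 without KO replicate 2, and limma-voom gave 0.011. Of the lists, the annexin median was −0.26 when WT replicate 2 was omitted and 0.04 when WT replicate 1 was. The medians of the receptors, the other binding partners and the other EF-hand sensors moved too (under 2, 6 and 1 alternatives). The cause was not tested. The depth limits S100a4 most, where 3 reads amount to 0.278 to 0.310 FPKM.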

Other observations

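Of the 9 further S100 genes listed, S100g, the intestinal calcium carrier calbindin-D9k, was the 1 with a row. It had 3 and 12 reads in KO libraries, against 2 and 0 reads in WT libraries, and was below the level tested. S100pbp, known in human as a nuclear binding partner of S100P and not itself an S100 gene, was chosen after its values were seen. It stood at 1.68 and 1.61 FPKM in KO libraries, against 1.07 and 1.44 FPKM in WT libraries (log2 fold change 0.23, limma adjusted p = 0.438).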
